A study of Homo sapiens with 36 samples.

Results

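Arrays of DLD-1 cells exposed to cigarette smoke extract (CSE) differed widely in HSPA6 intensity. DLD-1 is a human epithelial line from a colorectal adenocarcinoma, and the accounts below follow the other stress and growth programmes across the HSPA6 range. All 6 DLD-1 arrays labelled as smoke-treated were used, and the groups were chosen by the intensity of HSPA6, a stress-inducible chaperone of the HSP70 family, after quantile normalization of the bead intensities over all 36 arrays of the series. The 3 highest arrays (replicates 3, 5 and 2) are called strong and the 3 lowest (replicates 1, 6 and 4) weak. HSPA6 and its near-identical copy HSPA7 were left out of every result, and because a measured value chose the arrays, differences among them are given as descriptions with no test.

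The series holds 12 control and 6 CSE arrays of DLD-1, with as many of the Jurkat T cell line, each sample on its own Illumina bead array. Treated flasks received 20% CSE and controls 0% CSE, exposures lasted 2 to 6 h, and the labels give neither the exposure time of any array nor whether the arrays of a group came from separate cultures. P-values therefore measure only the spread between these arrays, which may be technical. The number of arrays limits the precision, and levels are normalized log2 intensities unless a difference is named. Between 16290 and 17919 probes were detected on the strong arrays and between 17395 and 17797 on the weak ones. Of 19 listed intestinal epithelial markers 15 were detected on all 6 CSE arrays, CDX1 and VIL1 on none, and of 16 T cell markers none was detected on all 6 and 9 on none of them.

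In descending order HSPA6 stood at 13.65, 12.73, 11.92, 11.86, 9.61 and 9.44 (log2, quantile-normalized) on replicates 3, 5, 2, 1, 6 and 4. The values ran over 4.21 log2 units, but they did not form a strong and a weak set of 3. Replicate 2, the lowest strong array, lay 0.0581 above replicate 1, the highest weak array, and the next step down was 2.25. When the bead intensities were scaled to equal medians in place of quantile normalization, replicate 1 lay above replicate 2 and the trios changed, whereas background correction, the authors' deposited values and another HSPA6 probe each kept the same 3 strong arrays. Replicates 1 and 2 were also the most alike pair over all genes (Pearson r = 0.9886 across 16088 genes, which are not independent replicates), with 168 genes at least 2-fold apart, against 1033 for replicates 3 and 6. Results are therefore given on all 6 arrays in the order of HSPA6, as a top pair (replicates 3 and 5), a middle pair (replicates 2 and 1) and a bottom pair (replicates 6 and 4). The middle pair shared BeadChip 1, replicates 3, 5 and 4 shared BeadChip 2, and replicate 6 was on BeadChip 3, so a value particular to the middle pair cannot be told apart from one particular to the CSE samples of that BeadChip.

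Several stress programmes are known to respond to the electrophiles and oxidants of smoke. Misfolded proteins release heat shock factor 1, which drives chaperone genes through heat shock elements, while modified KEAP1 frees NRF2, which drives antioxidant genes through antioxidant response elements. Kinase signalling induces immediate early genes such as FOS and JUN within minutes, free zinc or cadmium induces metallothioneins through the factor MTF1, and damaged cells slow their cycle through p21, the cyclin-dependent kinase inhibitor encoded by CDKN1A. Mitotic genes are commonly controlled through a cell cycle genes homology region (CHR) and replication genes through E2F sites.

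Over all 16088 genes described, 748 (4.65%) were higher on every strong than on every weak array and 947 (5.89%) were lower, and with means also at least 2-fold apart these numbers were 10 (0.0622%) and 12 (0.0746%). With the middle pair set aside, 142 genes (0.883%) were higher without overlap and at least 2-fold on the top pair than on the bottom pair, and 177 (1.1%) were lower. A stricter pattern asked that both arrays of the top pair lie above both of the middle pair, and these above both of the bottom pair. It was met by 323 genes upwards (2.01%) and 460 downwards (2.86%). By contrast 1866 genes (11.6%) were highest on both arrays of the middle pair, 79 of them (0.491%) with means at least 2-fold above the other 4 arrays, and 1520 (9.45%) were lowest on both.

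**Figure D1:**
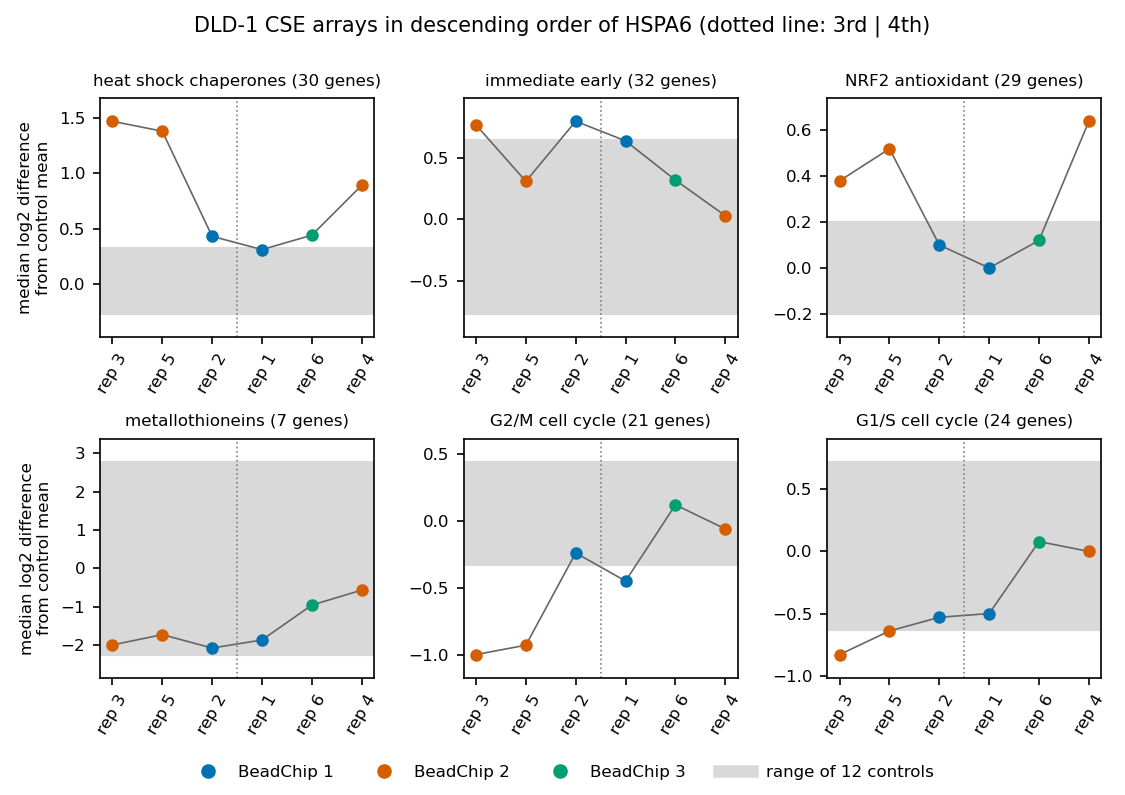
Median over the measured genes of each of 6 gene lists (y axis, log2 difference from the mean of 12 DLD-1 controls) on the 6 CSE arrays, ordered on the x axis by descending HSPA6; colours mark the BeadChip and grey bands the range of the 12 controls. Cell cycle medians are lowest and below the control range on replicates 3 and 5 (G2/M -1 and -0.93) and highest on replicates 6 and 4. Replicates 2 and 1 lie between, inside that range except replicate 1 for G2/M. Chaperones are highest on replicates 3 and 5, and NRF2 genes on replicate 4, the array with the lowest HSPA6.

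The programme that graded most closely with HSPA6 was the cell cycle, in the opposite direction. Mitotic (G2/M) genes lay furthest below control where HSPA6 was highest. Their median difference from the control mean, over 21 measured of 22 listed genes, was -1.0, -0.93, -0.24, -0.45, 0.12 and -0.06 log2 in descending order of HSPA6, and the 12 controls ranged from -0.33 to 0.44. Only the top pair and replicate 1 were outside the control range. Of the 21 genes, 14 (66.7%, against 2.86% of all genes) followed the order downwards over the 3 pairs, and 6 (28.6%, against 5.89%) were lower on every strong than on every weak array. The median strong minus weak difference was -0.64 log2, against -0.01 over all genes. It was -1.0 within BeadChip 2 and 0.11 within BeadChip 1, where only the near-equal replicates 2 and 1 could be compared.

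BUB1B, a kinase of the mitotic spindle checkpoint, stood at 5.42, 6.32, 6.80, 6.82, 7.44 and 7.72 in descending order of HSPA6. No strong array reached the level of a weak one, the means of the trios were 2.21-fold apart, and the controls ranged from 6.85 to 7.93. AURKB, the catalytic kinase of the chromosomal passenger complex, stood at 7.02, 7.57, 8.40, 8.67, 9.08 and 8.78, with the strong mean 2.26-fold below the weak mean. Its lowest arrays were again the top pair. KIF23, a kinesin of the central spindle, read 6.26, 6.52, 7.01, 7.16, 7.98 and 8.05, and the kinesin KIF20A 7.22, 7.07, 7.88, 8.11, 8.67 and 8.26. A further KIF23 probe differed by -0.15 log2 between strong and weak arrays, against -1.13 for the probe used, so the size of its difference depends on the probe. CCNB1, which encodes the mitotic cyclin B1, read 7.19, 7.09, 8.08, 7.73, 8.61 and 8.79, its top pair 2.95-fold below its bottom pair although replicates 2 and 1 crossed. TPX2, a spindle assembly factor, differed by -0.53 log2 between strong and weak arrays, and BIRC5, which encodes survivin of the passenger complex, by -0.51. CENPE and CENPF, a kinesin and a protein of the kinetochore, did not share the pattern and differed by 0.43 and 0.07 between strong and weak arrays.

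The DNA replication (G1/S) genes behaved alike but with a smaller step at the top. The median over all 24 listed genes was -0.83, -0.64, -0.53, -0.50, 0.08 and 0.00 log2 from the control mean, with controls between -0.63 and 0.72. Only the top pair lay outside the control range, replicate 5 narrowly. Here the middle pair lay nearer to the top than to the bottom pair. Of the 24, 7 (29.2%) followed the order downwards over the pairs, against 2.86% of all genes, and 7 (29.2%) were lower on every strong than on every weak array, against 5.89%. The median strong minus weak difference was -0.62 log2, -0.91 within BeadChip 2 and -0.07 within BeadChip 1. TYMS, the thymidylate synthase, stood at 9.61, 9.97, 10.48, 10.49, 11.42 and 10.99. Its 4 strongest HSPA6 arrays all lay below the bottom pair. PCNA, the sliding clamp of DNA polymerases, read 9.81, 10.40, 9.92, 10.48, 11.58 and 11.14, and E2F2, a transcription factor of S phase entry, 5.89, 6.78, 6.58, 7.0, 7.60 and 7.75. A further PCNA probe differed by -0.88 log2 between strong and weak arrays with overlap, against -1.03 for the probe used. MCM6, a subunit of the replicative helicase, read 8.95, 9.44, 9.48, 9.66, 10.31 and 10.07, and GINS2, a partner of that helicase, differed by -0.88 log2 between strong and weak arrays. CDC6, a helicase loader detected on 1 of the 6 arrays, and SLBP, which binds histone mRNA, differed by 0.07 and 0.05 between strong and weak arrays.

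**Figure D2:**
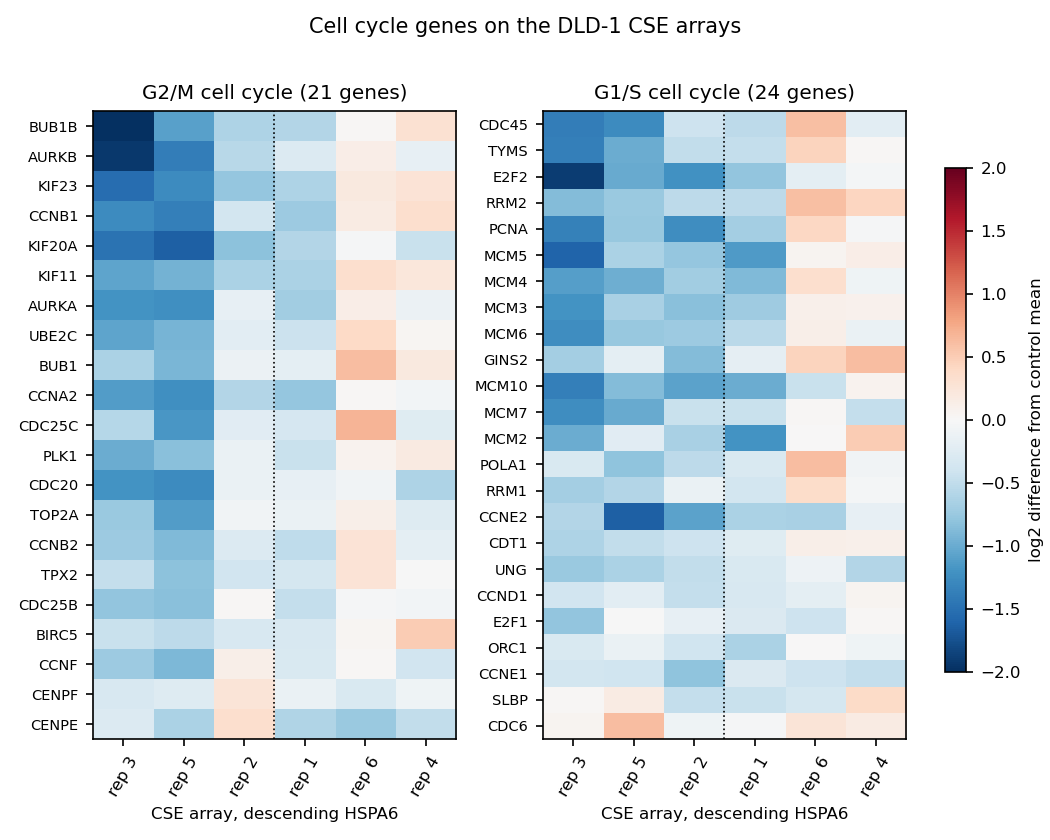
Heat maps of the 21 measured G2/M genes and 24 G1/S genes (rows, sorted by the difference between the top and the bottom pair) on the 6 CSE arrays in descending order of HSPA6 (columns); colour is the log2 difference from the mean of 12 controls, and values beyond 2 in either direction take the end colour. Most rows pass from blue on replicates 3 and 5 to white or pale red on replicates 6 and 4, except CENPE, CENPF, CCNE1, SLBP and CDC6 at the foot.

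Promoters of some of these cell cycle genes hold known control sequences. The 4 promoters shown were picked because they hold a match and their genes followed the order downwards over the pairs. They are the 150 bases before the annotated start in RefSeq's GRCh38.p14, 5′ to 3′ on the gene's strand, with capitals marking the CHR (TTTGAA or TTTAAA, searched on both strands) in the mitotic genes CCNB1, BUB1B and KIF23, and the E2F site (TTTGGCGC or TTTCGCGC, both strands) in MCM6, where the matches overlap. Only names and sequences were taken from this build, since the files state none.
CCNB1, chr5:69167000-69167149, plus strand: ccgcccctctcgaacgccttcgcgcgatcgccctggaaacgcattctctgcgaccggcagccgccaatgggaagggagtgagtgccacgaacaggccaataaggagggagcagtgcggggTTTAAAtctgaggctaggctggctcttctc
BUB1B, chr15:40160919-40161068, plus strand: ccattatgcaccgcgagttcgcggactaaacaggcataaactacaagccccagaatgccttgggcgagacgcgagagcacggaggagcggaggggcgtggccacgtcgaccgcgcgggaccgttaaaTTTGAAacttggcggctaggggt
KIF23, chr15:69414199-69414348, plus strand: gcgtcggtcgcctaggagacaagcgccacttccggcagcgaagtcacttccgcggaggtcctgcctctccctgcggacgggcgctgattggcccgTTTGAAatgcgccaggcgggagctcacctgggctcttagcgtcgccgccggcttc
MCM6, chr2:135876444-135876593, minus strand: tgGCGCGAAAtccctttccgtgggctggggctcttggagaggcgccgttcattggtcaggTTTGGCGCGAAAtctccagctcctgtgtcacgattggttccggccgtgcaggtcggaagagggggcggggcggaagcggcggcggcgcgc

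In windows of 300 bases around the start, a CHR was found in 12 of the 17 G2/M genes with a promoter in the table (70.6%), against 16.1% of the 9706 described genes with one. An E2F site was found in 8 of 20 G1/S genes (40%), against 2.14%. Among the genes that followed the order downwards, 72 of 332 promoters (21.7%) held a CHR and 8 (2.41%) an E2F site. A match describes the letters in the window and is not a binding site.

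CDKN1A, which holds the cycle back, graded the other way. It stood at 11.50, 10.47, 10.31, 9.90, 9.39 and 9.68 in descending order of HSPA6, with controls between 6.58 and 9.37. The strong mean was 2.15-fold above the weak mean without overlap, and all 6 arrays lay above all 12 controls, replicate 6 only narrowly (9.39 against 9.37). Over the 6 CSE and 12 control arrays it rose by 2.00 log2 (SE 0.47, limma adjusted p = 0.0079), and the adjusted p was between 0.0026 and 0.051 over 26 alternatives, missing the threshold at 0.051 without replicate 3. Of 20 measured p53 targets 2 (10%, against 2.01% of all genes) followed the order upwards, CDKN1A and ZMAT3, an RNA-binding protein, which differed by 0.26 log2 between strong and weak arrays. MDM2, the p53 ubiquitin ligase, differed by 0.25 and did not follow the order. Against all controls together most cell cycle genes did not pass the test, but the share that fell was above that of all genes. In limma 297 of 16090 genes (1.85%) rose with CSE and 396 (2.46%) fell at an adjusted p of 0.05. Of the cell cycle lists 2 of 21 G2/M genes (9.52%, CDC20 and KIF20A) and 2 of 24 G1/S genes (8.33%, MCM7 and MCM10) fell. KIF20A fell by 0.83 log2 (SE 0.25, adjusted p = 0.043) but missed the threshold under 15 of 26 alternatives. BUB1B differed from control by -0.66 (SE 0.21, adjusted p = 0.071) and AURKB by -0.70 (SE 0.23, adjusted p = 0.075). This comparison pools arrays that were below the controls with arrays that were not, and its shared estimate of spread does not allow for that.

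Heat shock chaperones were highest on the top pair but did not follow HSPA6 evenly. The median over 30 measured of 33 listed genes was 1.47, 1.38, 0.43, 0.31, 0.44 and 0.89 log2 above the control mean in descending order of HSPA6, with controls from -0.27 to 0.32. Replicate 4, which had the lowest HSPA6, held the third-highest chaperone median. The median strong minus weak difference was 0.49 log2, 0.39 within BeadChip 2 and 0.14 within BeadChip 1, and with 1 array left out between 0.28 (without replicate 3) and 0.84 (without replicate 2). Of the 30 genes 26 had a positive difference, against 7747 of all 16088 genes. Only HSPA9, the mitochondrial HSP70, did not overlap, higher on the strong arrays by 0.18 log2. It was 3.33% of the list, against 4.65% of all genes. In limma 17 of the 30 rose with CSE and none fell, against 1.85% and 2.46% of all genes.

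HSPA1B, the major inducible HSP70 gene, stood at 14.29, 14.39, 13.80, 13.95, 13.05 and 13.44, far above the controls at 9.25 to 11.16. All 6 arrays lay above every control, the top pair was 2.14-fold above the bottom pair and the trios were 1.61-fold apart. HSPA1B rose by 3.67 log2 with CSE (SE 0.40, adjusted p = 6.3e-08). Its near-identical copy HSPA1A followed the order too, and the probes cannot separate the copies with certainty. BAG3, a co-chaperone that couples HSP70 to autophagy, read 12.68, 12.21, 11.40, 11.47, 10.74 and 11.29, the top pair 2.69-fold above the bottom pair. HSPA4L, an HSP110-type exchange factor, had the widest step among the chaperones that followed the order, at 8.04, 7.64, 6.15, 6.64, 5.45 and 5.86 (4.54-fold between top and bottom pair). These 4 were the only chaperones to follow the order upwards over the pairs (13.3%, against 2.01% of all genes). With 1 CSE array left out the count was between 4 and 10. It was 10 without replicate 4 (33.3%, against 6.27% of all genes, since 5 arrays make a looser pattern). DNAJB1, the stress-inducible HSP40, read 12.92, 12.18, 12.40, 12.23, 11.44 and 10.58, lowest on replicate 4. It rose by 2.31 log2 with CSE (SE 0.30, adjusted p = 2.9e-06).

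Other chaperones were instead lowest on the middle pair. This held for 9 of 30 (30%, against 9.45%), among them the HSP90 genes HSP90AA1 and HSP90AB1 and the HSP90 co-chaperones STIP1 and FKBP4. With 1 CSE array left out the count was between 9 and 19, the highest (63.3%, against 15.7%) without replicate 6. FKBP4, an immunophilin, stood at 8.81, 8.44, 7.01, 6.83, 7.33 and 8.23, and on replicates 2, 1 and 6 it was within the control range, which ended at 7.36. CHORDC1, an HSP90 co-chaperone, read 10.32, 9.98, 8.06, 8.18, 7.69 and 9.24, and DNAJB6, an HSP40 that holds aggregating proteins, 11.01, 10.36, 9.49, 9.34, 8.89 and 9.55. Both were lowest on replicate 6 of the bottom pair, so neither had this pattern. Their promoters hold perfect heat shock elements and are shown for that reason, with the element (GAA, TTC and GAA separated by 2 bases of any kind, both strands) in capitals.
CHORDC1, chr11:90223050-90223199, minus strand: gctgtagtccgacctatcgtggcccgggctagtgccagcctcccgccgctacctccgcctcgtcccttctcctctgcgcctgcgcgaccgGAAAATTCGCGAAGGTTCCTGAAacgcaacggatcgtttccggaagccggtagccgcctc
DNAJB6, chr7:157336854-157337003, plus strand: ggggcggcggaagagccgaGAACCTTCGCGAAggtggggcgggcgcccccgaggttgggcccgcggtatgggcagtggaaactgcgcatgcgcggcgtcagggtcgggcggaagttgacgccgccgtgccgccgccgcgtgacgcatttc

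This strict element occurred in 5 of 27 chaperone promoters (18.5%) and in 0.35% of described genes. Of the 203 promoters of genes that followed the order upwards none held it, but at a share of 0.35% that number is too small to be informative. HSPA1A, HSPA1B and BAG3 were not among the 5, which says only that these letters are not in their windows.

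**Figure D3:**
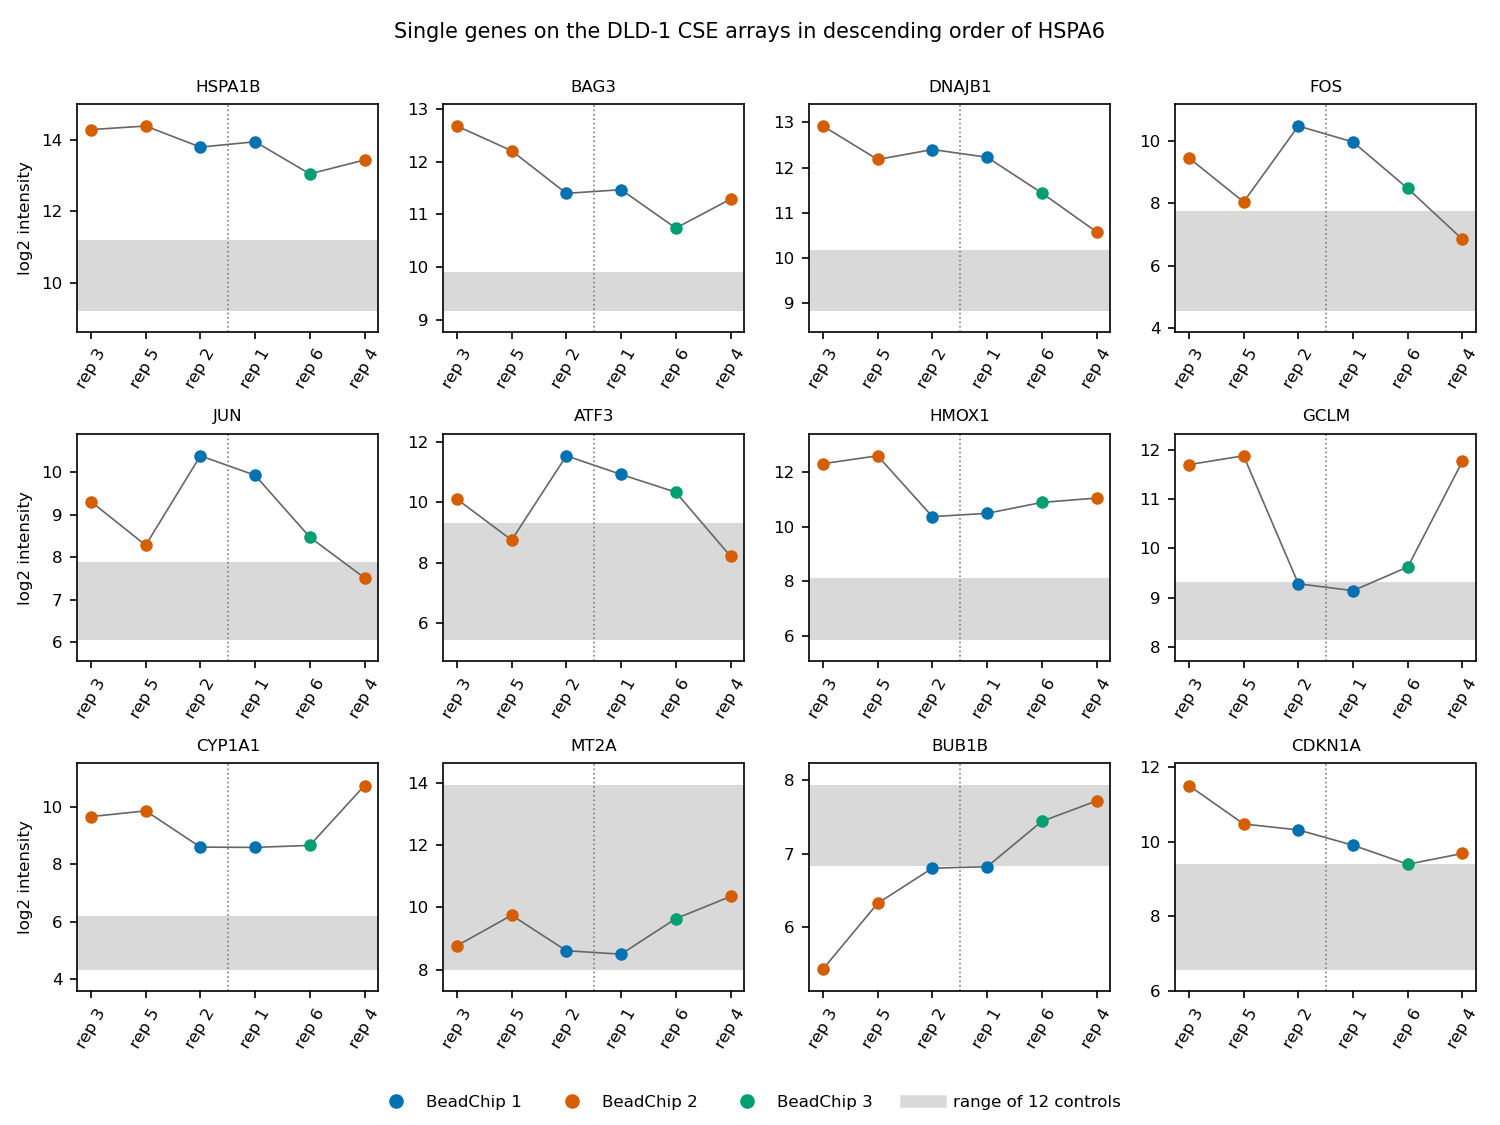
Normalized log2 intensity (y axis) of 12 genes on the 6 CSE arrays in descending order of HSPA6 (x axis), coloured by BeadChip, with the range of 12 controls as a grey band. BAG3 and CDKN1A descend and BUB1B ascends along the order, FOS, JUN and ATF3 peak on replicates 2 and 1 (FOS at 10.47 and 9.96), and GCLM dips to 9.28 and 9.14 on the same arrays.

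Immediate early genes did not follow HSPA6 evenly. Their median was highest on replicates 2 and 3 and lowest on replicate 4. A positive strong minus weak difference was seen in 23 of 32, against 7747 of all 16088 genes, but none followed the order upwards over the pairs. The median over 32 measured of 35 listed genes was 0.77, 0.31, 0.80, 0.64, 0.32 and 0.03 log2 from the control mean, and the controls ranged from -0.77 to 0.65. Replicates 3 and 2 were the only arrays above that range. Of the 32, 11 (34.4%, against 11.6%) were highest on both arrays of the middle pair. With 1 CSE array left out the count was between 11 and 19, the highest (59.4%, against 15.1%) without replicate 3. The median strong minus weak difference was 0.27 log2, 0.54 within BeadChip 2 and 0.16 within BeadChip 1, and with 1 array left out between 0.16 (without replicate 2) and 0.48 (without replicate 1).

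FOS, which encodes a subunit of the AP-1 transcription factor, stood at 9.45, 8.04, 10.47, 9.96, 8.47 and 6.84. The middle pair averaged 4.04-fold above the other 4 arrays, and replicate 4 was inside the control range of 4.59 to 7.72. JUN, its partner in AP-1, read 9.31, 8.28, 10.39, 9.93, 8.47 and 7.51, the same order of arrays. FOS rose by 2.66 log2 with CSE (SE 0.73, adjusted p = 0.026) and JUN by 1.90 (SE 0.34, adjusted p = 0.00052). The call for FOS was lost under 4 of 26 alternatives, each time when a CSE array with high FOS was left out or unfiltered genes were tested. EGR2, a zinc finger factor, read 7.42, 5.98, 8.33, 7.48, 6.18 and 5.68, and CCN1, a matricellular protein, 9.05, 7.92, 10.37, 10.33, 9.60 and 8.04. Some members departed from this. FOSL1, a late AP-1 subunit, was lowest on the middle pair, at 8.36, 8.22, 6.99, 6.54, 7.75 and 8.49. KLF2, a zinc finger factor, was the only member higher on all strong arrays (3.12%, against 4.65% of all genes), by 0.57 log2. DUSP2, a MAP kinase phosphatase, was the only one lower (3.12%, against 5.89%). It read 5.20, 4.81 and 4.90 against 5.68, 5.22 and 5.72 on the weak arrays, although it was detected on only 1 of the 3 strong arrays. DUSP1, another such phosphatase, read 4.24 on replicate 2 and between 6.99 and 8.78 on the other 5, and was not detected on replicate 2.

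The control arrays themselves fell into 2 sets of 6 for FOS, at 4.59 to 5.45 and 7.35 to 7.72. Both sets occurred on every BeadChip: on BeadChip 1, which carried the middle pair, control FOS ranged from 4.97 to 7.58. The middle pair lay above the higher of them. The same arrays formed the 2 sets for JUN, EGR1, MT2A, MT1X and HSPA1B, the last 3 in the reverse direction.

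Genes of the integrated stress response, led by the transcription factor ATF4, were often highest on the middle pair as well. Of 25, 10 (40%, against 11.6%) were highest on both of its arrays. ATF3, a factor induced by ATF4 and also by immediate early signalling, stood at 10.11, 8.75, 11.55, 10.93, 10.34 and 8.21. CHAC1, a glutathione-degrading enzyme, read 7.09, 5.23, 9.11, 8.58, 7.73 and 6.30, and DDIT4, an inhibitor of mTORC1, 12.39, 11.15, 13.83, 13.56, 13.01 and 11.64. In each the middle pair was highest and replicates 5 and 4, of the top and the bottom pair, were lowest. ATF3 rose with CSE by 2.01 log2 (SE 0.52, adjusted p = 0.016), whereas CHAC1 differed from control by 0.74 (SE 0.54, adjusted p = 0.56) and DDIT4 by 0.34 (SE 0.43, adjusted p = 0.79). The inhibitors of differentiation ID1, ID2 and ID3, partners that silence helix-loop-helix factors, were highest on the middle pair as well. ID3 stood at 8.50, 8.83, 10.93, 11.17, 10.13 and 9.44, its top pair and replicate 4 below every control (9.73 to 11.15).

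NRF2 antioxidant genes were high on the top pair and on replicate 4, and low on the middle pair and on replicate 6. The median over 29 measured of 31 listed genes was 0.38, 0.52, 0.10, 0.00, 0.12 and 0.64 log2 from the control mean, with controls from -0.20 to 0.20. The 3 arrays of BeadChip 2 were above the control range and the other 3 inside it, and the array with the lowest HSPA6 had the highest median. No gene of the list separated the strong from the weak arrays, where over all genes 4.65% did so upwards and 5.89% downwards. Of the 29, 11 (37.9%, against 9.45%) were lowest on both arrays of the middle pair. With 1 CSE array left out that count was between 11 and 21. The highest, 21 (72.4%, against 15.7%), came without replicate 6, whose NRF2 values were nearly as low. The median strong minus weak difference was 0.08 log2, -0.18 within BeadChip 2 and 0.10 within BeadChip 1, and with 1 array left out between -0.01 (without replicate 1) and 0.27 (without replicate 4).

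GCLM, the modifier subunit of the enzyme that limits glutathione synthesis, showed it most plainly, at 11.70, 11.88, 9.28, 9.14, 9.62 and 11.77 with controls from 8.15 to 9.29. Replicates 2 and 1 were inside the control range, replicate 6 was just above it, and replicates 3, 5 and 4 lay far above. SRXN1, a sulfiredoxin that restores peroxiredoxins, read 12.38, 12.35, 10.38, 10.29, 10.30 and 12.10, and MAFG, the small MAF partner of NRF2, 9.18, 8.84, 6.55, 6.67, 7.16 and 8.72. HMOX1, the inducible haem oxygenase, was high everywhere, at 12.31, 12.60, 10.37, 10.49, 10.89 and 11.05 against controls of 5.87 to 8.08. Its top pair was 2.80-fold above its bottom pair, and it rose with CSE by 4.37 log2 (SE 0.29, adjusted p = 8.4e-14). GCLM rose by 1.77 (SE 0.28, adjusted p = 0.00012), and in all 8 of the 29 rose and none fell, against 1.85% and 2.46% of all genes. The GCLM promoter is shown because it holds an antioxidant response element, in capitals, searched as TGACNNNGC on both strands.
GCLM, chr1:93909431-93909580, minus strand: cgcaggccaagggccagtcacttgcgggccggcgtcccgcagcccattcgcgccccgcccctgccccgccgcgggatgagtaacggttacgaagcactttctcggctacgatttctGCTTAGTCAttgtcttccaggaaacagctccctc

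This short element was present in 6 of 21 NRF2 promoters (28.6%) and in 15.2% of described genes. CYP1A1, a cytochrome P450 gene driven by the aryl hydrocarbon receptor, which smoke hydrocarbons activate, did not grade with HSPA6. It stood at 9.65, 9.85, 8.59, 8.58, 8.65 and 10.73, with all 6 arrays above the 12 controls (4.35 to 6.15), and rose by 4.35 log2 (SE 0.25, adjusted p = 5.7e-16). The array with the lowest HSPA6 had the highest CYP1A1, and the strong and weak means differed by 0.05 log2. CYP1B1, another such target, read 10.72, 11.10, 9.99, 10.16, 10.30 and 10.97, again lowest on the middle pair. TIPARP, a further target of the receptor, was instead highest there, at 10.92, 10.79, 11.71, 11.88, 11.55 and 10.76, and rose by 2.40 log2 (SE 0.25, adjusted p = 1.2e-08). TXNIP, an inhibitor of thioredoxin, fell by 2.39 log2 with CSE (SE 0.23, adjusted p = 4.5e-09) and stood at 7.18, 6.97, 8.54, 8.85, 7.97 and 7.65, every array below the controls (9.51 to 10.84).

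Metallothioneins, small cysteine-rich proteins that bind zinc and copper, had lower medians on the top and middle pairs than on the bottom pair, all within the control range. The median over 7 measured of 11 listed genes was -2.0, -1.73, -2.08, -1.87, -0.96 and -0.57 log2 from the control mean, and single controls ranged from -2.25 to 2.77. No member separated strong from weak arrays, where over all genes 4.65% did so upwards and 5.89% downwards. The median strong minus weak difference was -0.45 log2, -1.09 within BeadChip 2 and 0.05 within BeadChip 1, and with 1 array left out between -0.95 (without replicate 1) and -0.21 (without replicate 4). MT2A stood at 8.77, 9.75, 8.61, 8.50, 9.64 and 10.35, and MT1X at 7.72, 8.31, 8.03, 7.78, 9.20 and 9.51. The same 2 sets of 6 controls stood apart for MT2A, with the high-FOS set at 8.02 to 8.75 and the low-FOS set at 11.79 to 13.91. The CSE arrays lay within or above the lower set and below the higher. MT2A differed from control by -1.50 log2 (SE 0.76, adjusted p = 0.31), and of the list only MT1F fell, by 1.32 (SE 0.40, adjusted p = 0.049). MT1F did not share the pattern of the median. It stood at 7.86, 7.53, 8.49, 8.05, 8.29 and 7.71, with 3 arrays below every control. Copies of this family are near-identical and cannot be separated with certainty, and MT3 was not detected on any DLD-1 array.

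**Figure D4:**
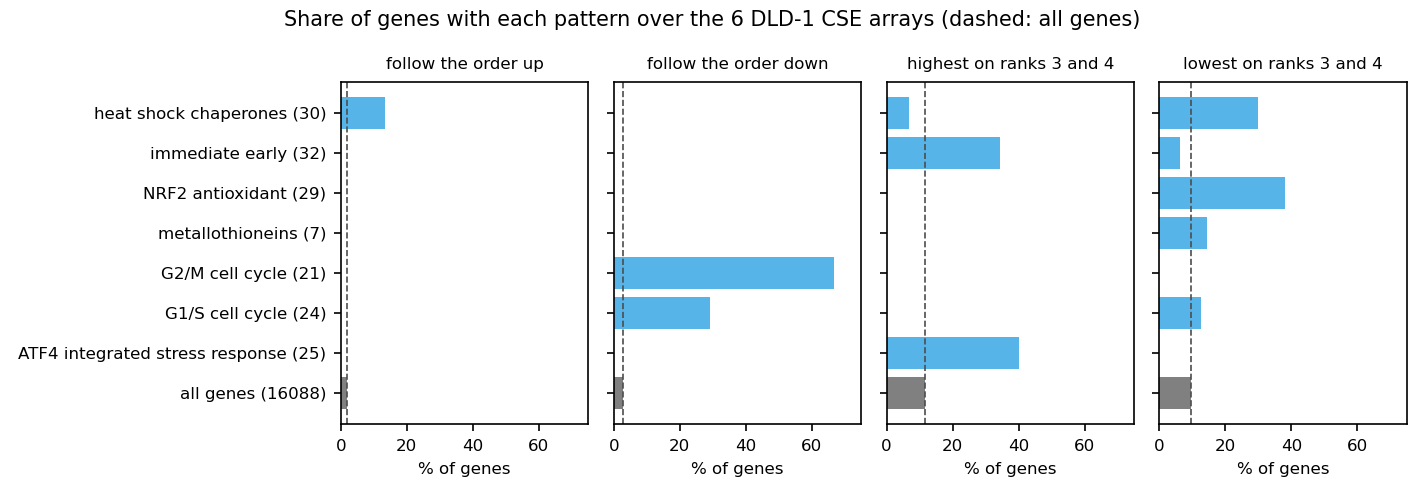
Share of genes (x axis, percent) of each list that show each of 4 patterns over the 6 CSE arrays, with measured genes in brackets and all 16088 genes as the grey bar and dashed line. G2/M genes stand out for following the order downwards (66.7% against 2.86%), and immediate early and ATF4 genes for being highest on the 3rd and 4th ranked arrays (34.4% and 40% against 11.6%). NRF2 genes and chaperones were often lowest there (37.9% and 30% against 9.45%). Lists not drawn reached similar shares, such as proteasome subunits (35.5%) and aryl hydrocarbon receptor targets (37.5%).

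Among single genes the widest difference without overlap belonged to the entry LOC652750, which the gene table does not name. It stood at 10.75, 9.35, 8.39, 8.06, 5.76 and 5.68 and was not detected on any control. Its trios were 7.98-fold apart and its top and bottom pairs 20.1-fold. TNFSF9, the ligand of the T cell co-stimulator 4-1BB, followed the order at 8.06, 7.06, 6.82, 6.45, 5.73 and 5.65 and rose with CSE by 1.35 log2 (SE 0.25, adjusted p = 0.00054). EID3, a subunit of the SMC5/6 complex, read 8.59, 7.41, 7.76, 7.36, 6.07 and 6.10. NOCT, the circadian phosphatase nocturnin, was 1.10 log2 higher on the strong arrays, and PXDN, a peroxidase of the extracellular matrix, was detected on the 3 strong arrays and on no weak one. MIR1974 and PPM1K, a mitochondrial phosphatase, differed by 1.17 and 1.03, but both turned to -0.09 and -0.22 when replicates 1 and 2 changed sides, and a further PPM1K probe differed by 0.46 with overlap. Among the lower genes, KIT, a receptor tyrosine kinase, stood at 6.82, 6.76, 7.71, 8.28, 8.75 and 7.97. A further KIT probe differed by -1.05 with overlap, against -1.24 for the probe used. CDCA7 and CDCA3, both cell cycle genes, differed by -1.21 and -1.08, and a further CDCA7 probe gave -0.32. TRIM6, a ubiquitin ligase, differed by -1.06 and fell with CSE by 0.80 (SE 0.17, adjusted p = 0.0025), and NOXA1, an activator of NADPH oxidase, read 4.53, 5.19 and 4.98 on the strong arrays, where it was detected on 1 of 3, and 5.72, 6.35 and 5.80 on the weak ones.

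BCL2L1, which encodes the Bcl-XL protein named in the series title, was level across the range at 12.20, 12.15, 12.36, 12.27, 12.22 and 12.11, and differed from control by -0.15 log2 (SE 0.16, adjusted p = 0.73). A further BCL2L1 probe differed by -0.18 between strong and weak arrays with overlap, against 0.04 for the probe used. The related MCL1, another anti-apoptotic gene, was higher on every strong array (10.15, 10.04 and 9.82) than on any weak one (9.27, 9.22 and 9.70), and rose with CSE by 0.91 (SE 0.18, adjusted p = 0.0015). It was the only 1 of 9 measured anti-apoptotic genes to do so (11.1%, against 4.65% of all genes). BIRC5, also 1 of the 9, was lower on every strong array (11.1%, against 5.89%). Proteasome subunits were lowest on the middle pair in 11 of 31 cases (35.5%, against 9.45% of all genes), and none rose or fell in limma, against 1.85% and 2.46%. Of 19 cholesterol synthesis genes 5 (26.3%, against 2.86%) followed the order downwards, among them SQLE, the squalene epoxidase, at 8.84, 8.82, 9.46, 9.31, 10.25 and 9.96.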

How the data were processed

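The authors' deposited table gives average bead intensity per probe for 47323 probes on 36 arrays, not normalized, per the file headers, and a deposited detection p-value that sets every probe against negative control beads. The authors also deposited normalized intensity values. The sources used here name no software for either table. With limma 3.58.1 in R 4.3.3, a normal-exponential background (offset 16, from the detection p-values) was removed, followed by quantile normalization and log2. HSPA6 was ranked on quantile-normalized intensities without background correction. A probe was kept if detected (p-value below 0.05) on 6 arrays or more, which left 22612, and each of 16090 genes took its brightest probe. Of these, 2866 kept the name in the file and the rest were named through the GRCh38.p14 gene table.

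Arrays were grouped by their labels. A limma fit over all 36 arrays, with 4 group means, tested CSE against control in DLD-1, with Benjamini-Hochberg adjusted p-values (threshold 0.05). On simulated data with 200 changed genes among 16090 it recovered 93% of changes of 1 log2 unit. The simulated noise was independent between arrays and each change was equal on all CSE arrays. That share need not hold for the real CSE arrays, which differed among themselves. Named were 10 fixed genes, up to 5 non-overlapping genes of each of 6 lists and the 8 widest non-overlapping differences in each direction. Other members are examples singled out after their values were seen. The arrays, lists and tests were chosen with earlier results of these data known.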

Additional observations from a re-analysis of the deposited data

How the results depend on the processing

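Strong and weak arrays were separated by a gap smaller than the choice of scaling, so counts that depend on that boundary are unstable, while counts over the 3 pairs are not touched by it. With median scaling 2 of the 3 strong arrays were kept. The number of genes without overlap and at least 2-fold apart was 22. It was 2 without background correction and 2 with the authors' deposited values, 299 within BeadChip 2, 319 without the 3rd and 4th ranked arrays, and between 11 (without replicate 3) and 186 (without replicate 2) when 1 array was left out. With fewer arrays less overlap arises by construction. The metallothionein median of -0.45 was -1.09 within BeadChip 2, 0.05 within BeadChip 1 and between -0.95 and -0.21 with 1 array left out. The G2/M median of -0.64 was -1.08 without the 3rd and 4th ranked arrays and 0.11 within BeadChip 1. The G1/S median of -0.62 was -0.37 with the authors' values, -0.91 within BeadChip 2, -0.89 without the 3rd and 4th ranked arrays and -0.07 within BeadChip 1. With the BeadChip as a block the G2/M and G1/S medians were -0.49 and -0.46. The 14 G2/M genes that followed the order ranged from 14 to 17 with 1 CSE array left out and were 17 with median scaling; the 7 G1/S genes ranged from 7 to 12. MIR1974 and PPM1K reversed to -0.09 and -0.22 when the 3rd and 4th ranked arrays were exchanged, an alternative chosen after seeing the data, as were those on the patterns over the pairs. The 693 limma calls became 444 with median scaling and between 295 (without CSE replicate 3) and 923 (without CSE replicate 6) with 1 array left out, with 367 without CSE replicate 5; the cause was not tested. CDCA3 and KIF20A lost their calls under 16 and 15 of 26 alternatives and CDCA7 under 8. No paired analysis was possible because the labels give no replicate numbers and the numbers used here follow accession order only. The signal over background limits low genes: LOC652750 was below detection on all controls, PXDN on all weak arrays, and NOXA1 and DUSP2 on 2 of the 3 strong arrays.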
